A study of Mus musculus with 9 samples.

Results

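Mitochondrial ribosomal proteins are the protein subunits of the ribosome that works inside mitochondria. Their genes were chosen by symbol, as every entry of the deposited table named Mrpl or Mrps followed by a number, which gave 78 of the 21899 genes listed. Transcript levels were measured by RNA-seq of poly(A) RNA in N2a cells, a mouse neuroblastoma cell line labelled as neuroblast with brain as its source. The 9 libraries came from cells that all carried a hairpin delivered by a pLKO.1-puromycin lentivirus. There were 3 libraries with shlucif, a hairpin against luciferase that served as the control. There were 3 with shArf1-1 and 3 with shArf1-2, which are different hairpins against Arf1. Arf1 is a small GTPase of the Golgi apparatus that recruits vesicle coats. The labels do not say whether the libraries of a group were separate cultures, so the p-values measure the spread between these libraries, which may be technical. They give no time after infection. The table heads 3 columns shArf2, which were read as shArf1-2 since no other sample's title fits, and every shArf1-2 value rests on that reading.

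The mitochondrial ribosome translates the few proteins encoded by mitochondrial DNA, all of them subunits of the oxidative phosphorylation (OXPHOS) machinery. Its RNA is transcribed inside the organelle, whereas its proteins are encoded in the nucleus, made in the cytosol and imported. The large subunit joins amino acids and releases the growing chain through an exit tunnel towards the inner membrane. The small subunit decodes the messenger. Some of the proteins have bacterial counterparts and others are found only in mitochondria. Promoters of such genes are known for sites of the factors NRF1, GABP (an ETS-family factor) and YY1, and many of the genes start close to a neighbour on the opposite strand.

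The windows around the start sites of Mrpl20, Mrpl49 and Mrps12, the 3 largest rises described below, and of Mrpl24, Mrpl45 and Mrpl14, the 3 largest falls, are printed to show the start regions of the genes that moved most. Each runs from 250 bases before to 50 bases after the start in RefSeq on GRCm38.p6. Capitals mark CCGGAAG (the ETS core), AAGATGGC (YY1), GCATGCGC (NRF1), CACGTG (E-box) or TATAAA on either strand.
Mrpl20, chr4:155802628-155802927, plus strand: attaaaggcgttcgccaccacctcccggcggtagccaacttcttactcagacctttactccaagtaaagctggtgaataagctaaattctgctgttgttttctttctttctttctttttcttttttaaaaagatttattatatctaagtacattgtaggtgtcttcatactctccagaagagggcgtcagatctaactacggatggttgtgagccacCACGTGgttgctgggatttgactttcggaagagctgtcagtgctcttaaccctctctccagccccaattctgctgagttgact
Mrpl49, chr19:6057706-6058005, minus strand: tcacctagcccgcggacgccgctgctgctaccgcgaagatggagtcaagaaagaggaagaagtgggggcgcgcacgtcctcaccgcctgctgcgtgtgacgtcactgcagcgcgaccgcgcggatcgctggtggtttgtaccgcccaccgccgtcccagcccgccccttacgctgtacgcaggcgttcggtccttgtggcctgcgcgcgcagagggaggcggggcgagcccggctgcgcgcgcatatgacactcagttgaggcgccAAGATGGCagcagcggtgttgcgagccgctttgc
Mrps12, chr7:28741772-28742071, minus strand: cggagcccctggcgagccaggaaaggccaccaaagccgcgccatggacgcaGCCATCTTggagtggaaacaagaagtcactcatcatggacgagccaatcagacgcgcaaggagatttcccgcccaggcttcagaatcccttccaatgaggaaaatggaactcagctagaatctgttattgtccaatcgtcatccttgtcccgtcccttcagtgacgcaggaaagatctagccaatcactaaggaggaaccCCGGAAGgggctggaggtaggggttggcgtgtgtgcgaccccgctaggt
Mrpl24, chr3:87919294-87919593, plus strand: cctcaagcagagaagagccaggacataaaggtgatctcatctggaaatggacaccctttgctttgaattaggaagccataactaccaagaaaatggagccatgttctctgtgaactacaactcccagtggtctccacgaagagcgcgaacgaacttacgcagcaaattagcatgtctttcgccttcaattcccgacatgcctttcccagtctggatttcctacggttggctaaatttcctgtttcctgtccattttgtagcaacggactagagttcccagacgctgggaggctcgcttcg
Mrpl45, chr11:97315466-97315765, plus strand: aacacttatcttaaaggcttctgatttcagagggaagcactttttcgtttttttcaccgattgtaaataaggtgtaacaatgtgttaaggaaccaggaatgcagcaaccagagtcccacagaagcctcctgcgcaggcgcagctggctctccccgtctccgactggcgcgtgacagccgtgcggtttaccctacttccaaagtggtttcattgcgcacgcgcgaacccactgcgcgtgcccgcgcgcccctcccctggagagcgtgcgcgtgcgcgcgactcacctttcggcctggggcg
Mrpl14, chr17:45686099-45686398, plus strand: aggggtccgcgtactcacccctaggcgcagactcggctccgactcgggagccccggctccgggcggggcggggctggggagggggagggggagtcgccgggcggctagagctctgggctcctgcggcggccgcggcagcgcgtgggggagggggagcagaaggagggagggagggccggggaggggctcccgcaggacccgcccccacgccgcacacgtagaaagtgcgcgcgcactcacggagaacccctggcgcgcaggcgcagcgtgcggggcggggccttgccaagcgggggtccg

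Mrpl20 held only an E-box, Mrpl49 the YY1 letters, and Mrps12 the ETS and YY1 letters, and Mrpl24, Mrpl45 and Mrpl14 held no match to these exact letters. Variants of a site were not searched, so a window without a match may still hold one. Among the next largest changes with a window, Mrps22, Mrpl18 and Mrpl3, which rose, and Mrpl57, which fell, each held CCGGAAG, and Mrps10, which fell, held no match.

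RefSeq windows were found by symbol for 69 of the 78 genes, 75 windows in all, some of which overlap where genes start opposite each other. CCGGAAG on either strand was present in 34.7% of them, against 8.86% of all 32851 windows in the reference, which were not limited to genes tested here. AAGATGGC was present in 16% against 2.75%, and GCATGCGC in 10.7% against 2.71%. CACGTG was present in 9.33% against 7.15%, and TATAAA in 6.67% against 13.6%. At least 1 of the ETS, YY1 and NRF1 motifs was found in the windows of 16 of the 27 genes that rose and had a window, and of 3 of the 9 that fell. Such a motif was present in 50.7% of all windows of the family and in 13.3% of all windows. Whether matches went with the direction of change was not tested. A match gives only the presence of these letters and does not show that a factor bound there. An opposite-strand start of a protein-coding gene lay within 1 kb for 33 of the 78 genes (42.3%), against 16.2% of the 12418 tested protein-coding genes in the annotation.

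Library depth was 11182479 to 15594615 counts, and the 78 genes together took 0.319% to 0.379% of them. Arf1 was the check on the hairpins. Arf1 stood at 328, 316 and 328 FPKM (fragments per kilobase of gene length, scaled to the library total) in the shlucif libraries, at 130.3, 128 and 127 FPKM with shArf1-1, and at 166, 157 and 171 FPKM with shArf1-2. All 6 Arf1-deficient libraries were below all 3 controls, with a log2 fold change of -1.21 ± 0.09 (SE, adjusted p = 6.05e-08, edgeR quasi-likelihood test over all 12448 genes tested). Arf1 was lower with shArf1-1 than with shArf1-2, by a log2 difference of 0.34 ± 0.05 (adjusted p = 1.16e-05).

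The libraries were also checked for transcripts of other cells. Of 20 macrophage and microglia markers, 18 could be tested, and 17 were lower and 1 (Mrc1) was higher in Arf1-deficient cells, a rise not past the threshold without any of 4 libraries in turn. Their summed level was 2350 to 2750 CPM (counts scaled to the library total) in the shlucif libraries and 2.77 to 3.95 CPM in the Arf1-deficient libraries, and 7 of the 20 had 0 counts in all 6 of the latter. The lysosomal protease gene Ctss stood at 31.0 to 34.7 FPKM in the controls and was 0 in every Arf1-deficient library. Spp1, which encodes osteopontin, was at 875 to 997 FPKM in the controls and at 0.135 to 0.434 FPKM in Arf1-deficient cells. Of 14 neuroblastoma and neuronal markers, all detected, 13 were higher in Arf1-deficient cells, and their summed level was 2460 to 2490 CPM in the controls against 4010 to 4760. Dbh, which encodes the enzyme that makes noradrenaline, rose most, by 1.85 ± 0.29 on the log2 scale. Summed fibroblast markers were 43.1 to 43.9 CPM in the controls against 15.8 to 23.3, and of the 4 of 8 that could be tested Pdgfrb and Col1a1 were lower and the other two did not pass, the highest at 0.45. These markers separate the shlucif libraries from the others in the same way as the hairpins, so their part in the results below cannot be told apart from that of Arf1 depletion. In bulk RNA, fewer cells of a type and less RNA per cell cannot be told apart either.

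The first comparison, of all Arf1-deficient libraries with the controls, asks how this gene family stood when Arf1 was depleted. More mitochondrial ribosomal protein mRNAs rose than fell, and most of the changes were small. Of the 77 genes tested, 29 were higher in Arf1-deficient cells, 10 were lower and 38 did not pass the test at an adjusted p of 0.05. Over all genes tested, 31.6% were higher and 32.9% were lower, so the share of the family that rose (37.7%) was near the background, whereas the share that fell (13%) was below it. The median log2 fold change was 0.14 in the family and 0.00 over all genes tested. After scaling, no Arf1-deficient library reached down to a control for 26 of the 77 (27.9% of all genes), and none reached up to a control for 8 (30.1% of all genes). The count of genes that rose was 20 without shlucif replicate 2, where 28% of all genes were higher. On log2(FPKM + 0.1), which is scaled by library totals, limma called 38 higher and 7 lower, where 36.4% of all genes were higher and 29% lower.

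**Figure D1:**
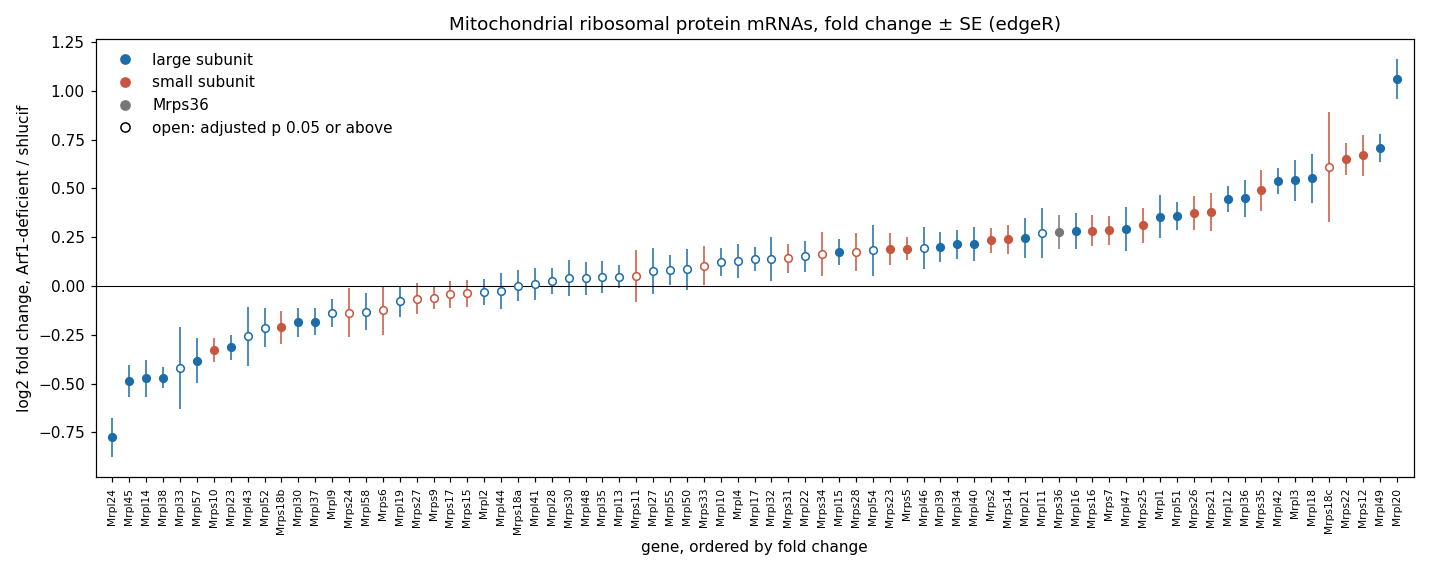
The log2 fold change of each of the 77 tested genes in Arf1-deficient against shlucif libraries is plotted in order, with bars for the standard error, colour for the subunit and open points for an adjusted p of 0.05 or above. The values run from -0.78 for Mrpl24 to 1.06 for Mrpl20, with 29 filled points above 0 and 10 below.

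The largest rise was that of Mrpl20, a large-subunit protein with a bacterial counterpart (chr4:155802878-155809975, GRCm38). Mrpl20 stood at 28.5, 26.4 and 27.1 FPKM with shlucif, 64.6, 63.6 and 70.7 FPKM with shArf1-1, and 54.3, 50.9 and 53.1 FPKM with shArf1-2. The 3 groups did not overlap, and the shArf1-1 libraries were highest. The log2 fold change was 1.06 ± 0.10 (SE, adjusted p = 1.44e-07).

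Mrpl49, a mitochondria-specific protein of the large subunit (chr19:6053622-6057785), was at 20.4, 21.9 and 20.1 FPKM in the controls, 36.2, 34.8 and 38.5 FPKM with shArf1-1, and 35.2, 34.1 and 33.8 FPKM with shArf1-2. Every Arf1-deficient library was above the controls, and the hairpins' ranges overlapped. It rose by 0.71 ± 0.07 on the log2 scale (adjusted p = 4.75e-08). Mrps12, a protein of the decoding centre (chr7:28739641-28741820), was at 18.8, 15.2 and 17.9 FPKM in the controls, 32.2, 32.0 and 25.3 FPKM with shArf1-1, and 28.5, 28.8 and 26.4 FPKM with shArf1-2. Its lowest Arf1-deficient library was shArf1-1 replicate 3, which was still above every control, and the rise was 0.67 ± 0.10 (adjusted p = 1.55e-05).

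Mrps22, a mitochondria-specific protein of the small subunit (chr9:98588730-98601660), was at 5.22, 5.69 and 5.94 FPKM in the controls, 8.91, 8.96 and 8.79 FPKM with shArf1-1, and 9.30, 10.1 and 9.24 FPKM with shArf1-2. The Arf1-deficient libraries lay close together above the controls, with a rise of 0.65 ± 0.08 (adjusted p = 8.15e-07). Mrpl18, a protein of the central protuberance of the large subunit (chr17:12911349-12916345), was at 12, 11.6 and 12 FPKM in the controls, 21.5, 17.9 and 21.3 FPKM with shArf1-1, and 16.5, 17.9 and 13.8 FPKM with shArf1-2. Its controls were nearly equal and below every other library, and it rose by 0.55 ± 0.13 (adjusted p = 0.000771). In the annotation 10.1% of the exon bases of Mrpl18 lie in exons of Tcp1. Mrpl3, a core protein of the large subunit (chr9:105053239-105079888), was at 4.02, 5.14 and 4.59 FPKM in the controls, 7.80, 6.74 and 7.61 FPKM with shArf1-1, and 6.77, 5.55 and 7.32 FPKM with shArf1-2. The groups came near each other at shlucif replicate 2 and shArf1-2 replicate 2 without overlapping, and the rise was 0.54 ± 0.10 (adjusted p = 0.000174).

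Mrpl24, a protein beside the exit tunnel (chr3:87919506-87923672), fell most. It was at 17.1, 14.9 and 15.7 FPKM in the controls, 7.48, 9.08 and 9.70 FPKM with shArf1-1, and 10.3, 11.2 and 10.5 FPKM with shArf1-2. All Arf1-deficient libraries were below the controls, and those with shArf1-1 were the lowest. The log2 fold change was -0.78 ± 0.10 (adjusted p = 1.71e-06). In the annotation 26.3% of its exon bases also lie in exons of the neighbour Rrnad1, and without knowledge of strand the reads of the overlap cannot be assigned.

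Mrpl45, which lies at the tunnel exit and contacts the inner membrane (chr11:97315716-97329920), was at 17.5, 16.9 and 19.1 FPKM in the controls, 13.3, 11.1 and 13.4 FPKM with shArf1-1, and 14.2, 13.4 and 14.2 FPKM with shArf1-2. The lowest value was that of shArf1-1 replicate 2, and the fall was -0.49 ± 0.08 (adjusted p = 3.61e-05). Mrpl14, a protein of the subunit interface (chr17:45686322-45698495), was at 32.4, 26.9 and 30.1 FPKM in the controls, 23.2, 24.7 and 23.2 FPKM with shArf1-1, and 21.6, 20.2 and 21.8 FPKM with shArf1-2. Its groups did not overlap either (-0.47 ± 0.09, adjusted p = 0.000194), although 11.2% of its exon bases are shared with Tmem63b. Mrpl38, a mitochondria-specific protein of the central protuberance (chr11:116131817-116138868), was at 54.3, 53.6 and 57.6 FPKM in the controls, 40.1, 40.6 and 41.4 FPKM with shArf1-1, and 42.9, 44.1 and 40.8 FPKM with shArf1-2. The hairpins gave nearly the same level, and the fall was -0.47 ± 0.05 (adjusted p = 2.50e-07).

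Mrpl57, a mitochondria-specific protein of the large subunit (chr14:57826234-57829296), was at 12.7, 13.1 and 14.1 FPKM in the controls, 12.6, 12.5 and 11.7 FPKM with shArf1-1, and 9.16, 8.97 and 9.15 FPKM with shArf1-2. The shArf1-1 libraries lay just under the controls and the shArf1-2 libraries well below both, so the pooled change of -0.38 ± 0.12 (adjusted p = 0.00747) lies between those of the hairpins. Mrps10, a small-subunit protein with a bacterial counterpart (chr17:47368887-47381417), was at 11.4, 11.9 and 11.7 FPKM in the controls, 9.60, 9.03 and 10.4 FPKM with shArf1-1, and 8.95, 10.3 and 9.84 FPKM with shArf1-2. Its Arf1-deficient libraries were all lower, by -0.33 ± 0.06 (adjusted p = 0.000108). The directions of these 12 changes, and their side of the threshold, were the same under every alternative tried.

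**Figure D2:**
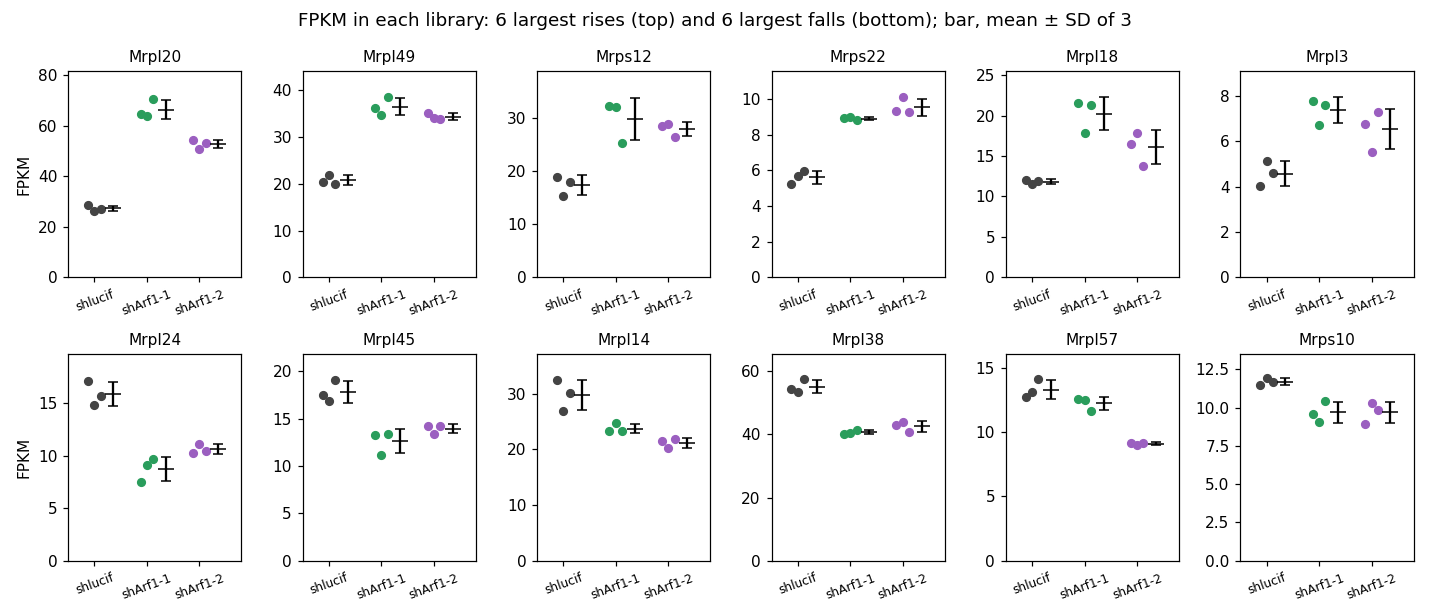
Each panel plots the FPKM of a gene in the 9 libraries by hairpin on an axis that starts at 0, with the mean ± SD of 3 libraries beside the points. In the top row (6 largest rises) every Arf1-deficient library is above the controls, and in the bottom row (6 largest falls) every library is below; Mrpl20, Mrpl18 and Mrpl57 also differ between the hairpins.

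By subunit, 16 of the 50 tested genes of the large subunit were higher and 8 were lower, with a median log2 fold change of 0.08, where 31.6% of all genes were higher and 32.9% lower. Of the 26 genes of the small subunit 12 were higher and 2 (Mrps10 and Mrps18b) were lower, with a median of 0.18. Mrps18a and Mrps30 were counted with the large subunit, where their proteins sit. Among large-subunit proteins with a bacterial counterpart 11 of 30 were higher and 4 lower (median 0.13), and among mitochondria-specific ones 5 of 20 were higher and 4 lower (median 0.03). In the small subunit the same classes gave 7 of 16 higher and 1 lower (median 0.18), and 5 of 10 higher and 1 lower (median 0.18). The difference between the subunits was not tested.

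Within the large subunit, the exit tunnel group of 8 had 2 genes higher and 3 lower (median 0.06), and Mrpl24 and Mrpl45 were among the lower. Among all genes tested, 31.6% were higher and 32.9% lower. The central protuberance group of 7 had 2 higher and 1 lower (median 0.08), with Mrpl18 and Mrpl38 at its ends. Of the 4 tested genes of the stalk, which recruits translation factors, 1 was higher and all 4 had positive log2 fold changes (0.12 to 0.45). With shArf1-1 alone 3 of the 4 were higher, where 33.1% of all genes were. With shArf1-2 alone 1 was (-0.05 to 0.36), where 30.9% of all genes were. Between the hairpins 3 of the 4 were lower with shArf1-2, where 7.46% of all genes were. Of these only Mrpl54 stayed past the threshold with each hairpin library left out in turn. The one higher with all Arf1-deficient libraries was Mrpl12, the stalk protein that is also known to bind the mitochondrial RNA polymerase. Mrpl12 was at 80.3, 75.5 and 81.2 FPKM in the controls, 121, 113 and 120 FPKM with shArf1-1, and 111, 102 and 106 FPKM with shArf1-2. The groups did not overlap, and it rose by 0.45 ± 0.06 (adjusted p = 6.68e-06). Exons of Gm16755 cover 13.1% of the exon bases of Mrpl12 in the annotation. The fifth stalk gene, Mrpl53, had 0 counts in all 9 libraries, which allows up to 3 counts in each, and was the only member that could not be tested. In the annotation 88% of its exon bases lie in exons of Gm42688 and Ccdc142os.

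The 3 Mrps18 paralogues, which descend from the same bacterial protein but occupy different places in the ribosome, did not move together. Mrps18a was at 16.4, 12.9 and 15.3 FPKM in the controls, 14.4, 15 and 15.5 FPKM with shArf1-1, and 16.5, 16.7 and 15.3 FPKM with shArf1-2. These ranges overlapped, and the log2 fold change was 0.00 ± 0.08 (adjusted p = 0.984). Mrps18b was at 17.1, 14.9 and 13.6 FPKM in the controls, 14.1, 13.8 and 12.7 FPKM with shArf1-1, and 14.2, 13.5 and 13.9 FPKM with shArf1-2. Its change of -0.21 ± 0.09 (adjusted p = 0.0372) had overlapping groups, was lost without shlucif replicate 2, shArf1-1 replicate 3 or shArf1-2 replicate 2, and was -0.11 without shlucif replicate 1 (adjusted p = 0.308). It was also lost with the GC content correction (0.0535), the length correction (0.0805, and 0.0903 with the replicate block), library totals (0.129), limma at either pseudocount (0.0969 and 0.0971) and no low-count filter (0.0529). In the annotation 30.5% of its exon bases are shared with Gm16279. Mrps18c had only 15 to 34 counts in a library, with 18, 15 and 15 counts in the controls, 27, 17 and 34 with shArf1-1, and 28, 21 and 27 with shArf1-2. It was higher in every Arf1-deficient library after scaling, but its log2 fold change of 0.61 ± 0.28 did not pass the test (adjusted p = 0.0631). It passed with at least 10 counts in every library (0.0423), with the gene length correction (0.0453), with library totals (0.0387), and with limma on log2(FPKM + 0.1) or log2(FPKM + 1) (0.00207 and 0.00209). Exons of Gm43511 cover 23.2% of the exon bases of Mrps18c in the annotation.

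Mrps36 carries a mitoribosomal symbol, but its protein is known as a subunit of the 2-oxoglutarate dehydrogenase complex. It was at 27.8, 25.6 and 26.9 FPKM in the controls, 32.7, 36.4 and 38.8 FPKM with shArf1-1, and 29.9, 32.2 and 33.4 FPKM with shArf1-2. Every Arf1-deficient library was above the controls, and it rose by 0.28 ± 0.09 (adjusted p = 0.00915), a call that was lost without shlucif replicate 2 (adjusted p = 0.0578). Without it, the 29 genes that rose are 28.

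Each hairpin was also compared with the same 3 shlucif libraries. With shArf1-1, 34 of the 77 genes were higher and 8 lower, where 33.1% of all genes were higher and 34.4% lower, and the median log2 fold change was 0.17. With shArf1-2, 25 were higher and 10 lower, where 30.9% of all genes were higher and 32.6% lower, and the median was 0.09. Scaled by library totals, 36 were higher and 8 lower with shArf1-2, where 36.5% of all genes were higher and 28.1% lower. The median log2 level of the family relative to the shlucif mean was -0.057 to 0.044 in the control libraries, 0.085 to 0.169 with shArf1-1 and 0.034 to 0.121 with shArf1-2, so shlucif replicate 3 overlapped with the lowest shArf1-2 library. Mrpl20 rose by 1.23 ± 0.07 with shArf1-1 and by 0.88 ± 0.07 with shArf1-2. In the same order, the log2 fold changes of Mrpl24 were -0.91 ± 0.10 and -0.65 ± 0.10, and those of Mrps22 were 0.61 ± 0.09 and 0.69 ± 0.09. No gene of the family was called in opposite directions by the hairpins.

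The hairpins themselves were then compared, which leaves the control libraries out of the difference. None of the 77 genes was higher with shArf1-2 than with shArf1-1 in edgeR, where 6.98% of all genes were, and 1 was at an unadjusted p under 0.05. There were 11 genes lower with shArf1-2 (14.3%), where 7.46% of all genes were, and 18 at an unadjusted p under 0.05. DESeq2 called 0 higher and 9 lower, where 6.36% of all genes were higher and 6.88% lower. The log2 difference was negative for 58 of the 77, with a median of -0.08 against 0.00 over all genes tested. In 9 of the 11 the libraries of the hairpins did not overlap after scaling, but this was counted only among genes that the same comparison had called. The same count over all genes is not given. These counts rest on few libraries. Without shArf1-1 replicate 3, 1 gene was higher and 4 were lower (5.29% and 5.61% of all genes). There were 5 lower without shArf1-1 replicate 1 (4.65% of all genes) or without shArf1-2 replicate 2 (4.59%). Without shArf1-2 replicates 1 and 3, 6 and 7 were lower (4.72% and 5.17% of all genes).

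Mrpl57, given above, differed most (-0.44 ± 0.08, adjusted p = 0.000337). Mrpl54, a mitochondria-specific protein of the large subunit, was at 28.8, 26.4 and 29.4 FPKM with shlucif, 35.4, 35.1 and 44.0 FPKM with shArf1-1, and 28.1, 29.0 and 28.8 FPKM with shArf1-2. The shArf1-2 libraries were at the control level and the shArf1-1 libraries above, with replicate 3 the highest. The log2 difference was -0.44 ± 0.10 (adjusted p = 0.00178), and -0.32 without that library, still past the threshold. Mrps11, a small-subunit protein of the platform, was at 6.41, 5.85 and 6.82 FPKM with shlucif, 8.35, 7.33 and 7.85 FPKM with shArf1-1, and 5.72, 5.81 and 6.28 FPKM with shArf1-2. The controls lay between the hairpins and overlapped with shArf1-2, and the log2 difference was -0.42 ± 0.12 (adjusted p = 0.0126), lost without shArf1-1 replicate 1 or shArf1-2 replicate 1. The other genes called were Mrpl20 (-0.35), Mrpl18 (-0.36), Mrps35 (-0.28) and Mrpl12 (-0.17), and, named here after their values were seen, Mrpl11 (-0.36), Mrps34 (-0.32), Mrpl52 (-0.28) and Mrps33 (-0.26). Mrpl11 was at 9.18, 8.56 and 12.1 FPKM with shArf1-1 and at 7.99, 7.82 and 7.90 FPKM with shArf1-2. Its difference was -0.19 and not past the threshold without shArf1-1 replicate 3, the library at 12.1. Mrps34 shares 77.8% of its exon bases with Mapk8ip3 and Nme3.

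**Figure D3:**
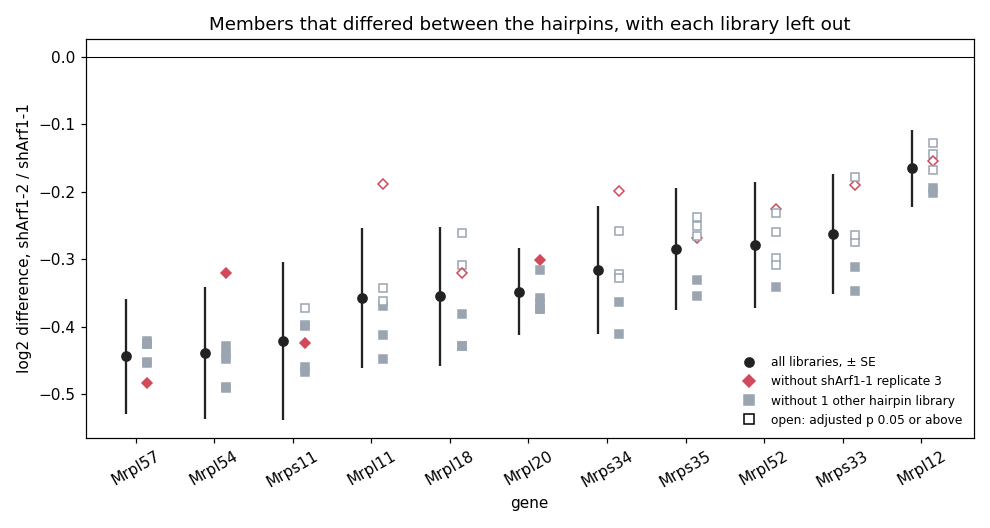
For the 11 genes that differed between the hairpins, the log2 difference of shArf1-2 from shArf1-1 with all libraries (circle, ± SE) stands beside its value without each hairpin library in turn (diamond, without shArf1-1 replicate 3; square, without another; open, adjusted p of 0.05 or above). Mrpl57, Mrpl54 and Mrpl20 stay past the threshold throughout, and Mrpl11 moves most, to -0.19.

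Levels of the family spanned a wide range. Mean FPKM over the 9 libraries was 0.583 to 101 among the tested genes, with a median of 14.8 against 7.04 over all genes tested. Mrpl12 was highest (101 FPKM), followed by Mrpl2, a protein of the peptidyl transferase region (79.2 FPKM), and Mrpl34 (63.9 FPKM). Mrpl2 was at 83.1, 79.5 and 71.3 FPKM in the controls, 85.4, 82.0 and 74.1 FPKM with shArf1-1, and 81.4, 80.2 and 75.8 FPKM with shArf1-2, overlapping throughout (-0.03 ± 0.07, adjusted p = 0.704). Mrpl34 was at 55.9, 53.1 and 59.0 FPKM in the controls, 70.8, 69.0 and 67.1 FPKM with shArf1-1, and 70.9, 66.0 and 63.5 FPKM with shArf1-2, and rose by 0.21 ± 0.08 (adjusted p = 0.0178; 0.107 without shlucif replicate 2). In the Arf1-deficient libraries the values of Mrpl2 and Mrpl34 did not meet, and Mrpl12 was above both in each of them, whereas among the controls Mrpl12 and Mrpl2 overlapped.

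The lowest were Mrpl33 (0.583 FPKM), Mrps18c (1.52 FPKM) and Mrps35 (3.21 FPKM). Mrpl33 had 56, 71 and 77 counts in the controls, 37, 49 and 78 with shArf1-1, and 42, 61 and 52 with shArf1-2. Its groups overlapped, and the log2 fold change of -0.42 ± 0.21 did not pass (adjusted p = 0.0845). It passed with the GC content correction (0.0413), with the block and length correction together (0.0389) and without shArf1-1 replicate 3 (0.0419). Mrps35, a mitochondria-specific protein of the small subunit, was at 2.31, 2.50 and 2.52 FPKM in the controls, 3.65, 4.09 and 4.01 FPKM with shArf1-1, and 3.03, 3.20 and 3.54 FPKM with shArf1-2. The 3 groups did not overlap, and it rose by 0.49 ± 0.10 (adjusted p = 0.000394).

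The order of levels depends on the gene length used. The table divides by a listed length of 607 to 8631 bases (median 2394), while the principal transcripts in the annotation have 418 to 7300 bases (median 1255). Per kilobase of the principal transcript, Mrpl42 (140), Mrpl30 (137) and Mrpl23 (134) came first, ahead of Mrpl12 (118), and Mrpl33 moved to 8.93, above 11 others with counts. These genes were named after their values were seen, and counts from outside the principal transcript would raise such a value. A fold change of the same gene between libraries does not depend on the length.

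**Figure D4:**
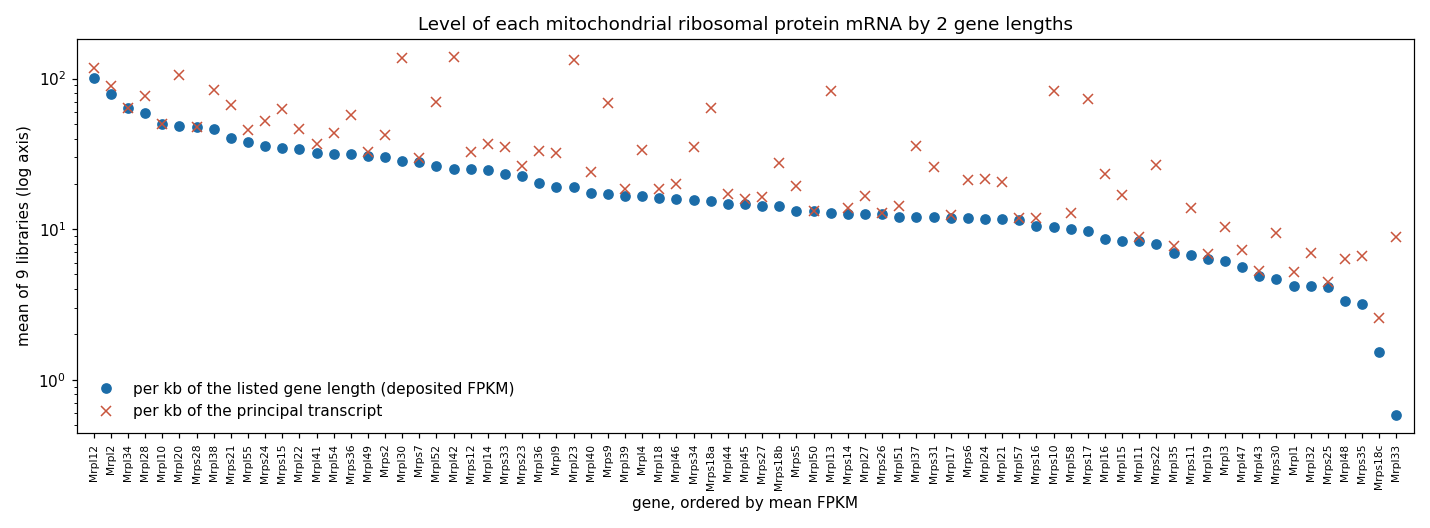
The mean level over 9 libraries is plotted on a log axis for the 77 genes with counts, ordered by deposited FPKM (circles), with the same counts per kilobase of the principal transcript, scaled to the library total (crosses). The circles run from 101 for Mrpl12 to 0.583 for Mrpl33, and crosses far above their circle, as for Mrpl42 at 140, mark genes whose listed length is much longer than their principal transcript.

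Proteins that sit in the mitochondrial ribosome under other names were looked at next. Ptcd3, an RNA-binding protein of the small subunit, was at 5.76, 6.28 and 6.21 FPKM in the controls, 13.7, 12.8 and 14.5 FPKM with shArf1-1, and 12.3, 14.7 and 14.0 FPKM with shArf1-2. All Arf1-deficient libraries were far above the controls, with a log2 rise of 1.1 ± 0.07 (adjusted p = 1.14e-10), and the hairpins overlapped. Dap3, the GTP-binding protein of the small subunit, was at 15.3, 15.5 and 16.0 FPKM in the controls, 14.2, 14.3 and 15.2 FPKM with shArf1-1, and 14.7, 14.7 and 14.4 FPKM with shArf1-2. It fell slightly (-0.16 ± 0.05, adjusted p = 0.0138), and lost the threshold without shlucif replicate 3, with the GC content correction (-0.11, adjusted p = 0.0566), with library totals (-0.10, 0.113) and with limma at either pseudocount (-0.10 and -0.09, 0.101 and 0.102). Aurkaip1 (0.08 ± 0.06), Chchd1 (0.01 ± 0.09) and Gadd45gip1 (0.31 ± 0.37, at 8 to 41 counts in a library) did not pass. Aurkaip1 passed at 0.17 with the GC content correction (adjusted p = 0.00919), at 0.14 with library totals (0.04) and at 0.14 with limma at either pseudocount (0.0193 and 0.0195).

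Of 15 mitochondrial translation factors 14 were in the table and 13 were tested, of which 5 were higher and 2 lower (median 0.20). Among all genes tested, 31.6% were higher and 32.9% lower, and these shares are the background for each list here. The release factor Mtrf1 (0.49 ± 0.20) and Taco1, an activator of cytochrome oxidase translation (0.48 ± 0.11), rose most, and Mtrf1 lost the threshold without any of 4 libraries in turn (shlucif replicates 1 and 2, shArf1-2 replicates 2 and 3; adjusted p 0.0647 to 0.146) and with the GC content correction (0.0725). The lower ones were Mrrf, the ribosome recycling factor (-0.67 ± 0.11, adjusted p = 4.20e-05), and Mtfmt, which formylates the initiator tRNA (-0.36 ± 0.10, adjusted p = 0.00549). Of 25 assembly factors 10 were higher and 5 lower (median 0.07). Ybey, an rRNA-processing nuclease (0.79 ± 0.21), and the GTPase Noa1 (0.57 ± 0.09) rose most. Malsu1, which binds Mrpl14 on the assembling large subunit, had a log2 fold change of -0.51 ± 0.11, and Tfb1m, the small-subunit rRNA methyltransferase, had a log2 fold change of -0.40 ± 0.15, a call that was lost without shlucif replicate 2 or 3 and with limma on log2(FPKM + 0.1) (adjusted p = 0.0516).

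Of 4 genes of mitochondrial transcription, Tfb2m (0.57 ± 0.12) and Tfam (0.21 ± 0.07) were higher, and Tfam lost the threshold without shlucif replicate 2 and, at 0.09 (adjusted p = 0.22), with the GC content correction. Of 10 tested nuclear regulators of mitochondrial genes 4 were higher and 2 lower, where 31.6% of all genes were higher and 32.9% lower. Gabpb2, a partner subunit of GABP (1.11 ± 0.11), and the neuroblastoma oncogene Mycn (0.87 ± 0.22) rose most, while the DNA-binding subunit Gabpa (-0.25 ± 0.07) and Gabpb1 (-0.18 ± 0.07) were lower, the latter not past the threshold without any of 4 libraries in turn (shlucif replicates 2 and 3, shArf1-1 replicate 2 and shArf1-2 replicate 1), nor with library totals (-0.11), limma (-0.11 and -0.10) or no low-count filter (adjusted p 0.0544 to 0.192). Of 11 tested protein-coding genes of mitochondrial DNA, mt-Nd1 (1.02 ± 0.24, adjusted p = 0.0067) and mt-Cytb (0.73 ± 0.28, adjusted p = 0.0488) were higher, and mt-Cytb was not past the threshold without any of 7 libraries in turn, all but shArf1-2 replicates 1 and 3 (adjusted p up to 0.131), nor with the replicate block (0.0969, and 0.0723 with the length correction), the GC content correction (0.54, 0.116), at least 10 counts in every library (0.0509) or no low-count filter (0.0602). With shArf1-1 alone 6 of the 11 were higher (median 0.51), where 33.1% of all genes were. With shArf1-2 alone 1 was higher and 2 were lower (median 0.02), where 30.9% of all genes were higher and 32.6% lower. mt-Nd1 was at 529, 580 and 517 FPKM in the controls, 1563, 1182 and 1421 FPKM with shArf1-1, and 816, 977 and 898 FPKM with shArf1-2. It was higher in every Arf1-deficient library, and the hairpins did not overlap.

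The 2 nearest gene families were described in the same way. Both families were chosen by symbol. Of 80 tested cytosolic ribosomal protein genes, 1 was higher and 70 were lower in Arf1-deficient cells, with a median log2 fold change of -0.36. The higher one was Rpl7l1 (0.57), an L7-like gene named after its value was seen. The mitochondrial family had 29 higher and 10 lower of 77 and a median of 0.14, where 31.6% of all genes were higher and 32.9% lower. Cytosolic ribosomal protein genes took 6.79% to 7.36% of counts in the controls and 5.47% to 5.72% in Arf1-deficient libraries. Of 83 tested nuclear-encoded OXPHOS subunits, 22 were higher and 11 lower, with a median of 0.08. The 22 include Cox5b-ps (0.25), whose symbol marks a pseudogene, also named after its value was seen. With shArf1-2 against shArf1-1, 8 cytosolic ribosomal protein genes were lower and 2 higher (median -0.02), where 7.46% of all genes were lower and 6.98% higher. Of the 83 OXPHOS subunits, 11 were lower and 0 higher, with a median of -0.09. The mitochondrial family had 11 lower and 0 higher of 77, with a median of -0.08. The families were not tested against each other.

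**Figure D5:**
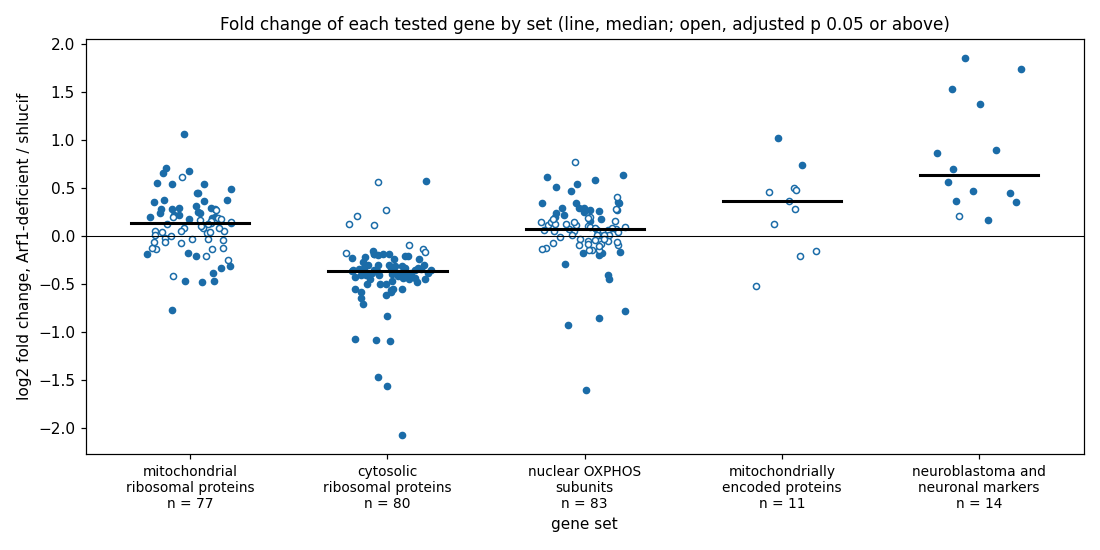
Each point is the log2 fold change of a tested gene in Arf1-deficient against shlucif libraries, with a line at the median of the set and open points for an adjusted p of 0.05 or above. The medians are 0.14 for mitochondrial ribosomal proteins, -0.36 for cytosolic ribosomal proteins, 0.08 for nuclear OXPHOS subunits, 0.37 for proteins encoded by mitochondrial DNA (0.51 with shArf1-1 and 0.02 with shArf1-2) and 0.63 for the neuronal markers.

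Exons of a member overlap those of another gene over 10% or more of their bases for 18 of the 78 genes. Among the other 60 genes, 24 were higher and 7 lower with a median of 0.14. Among the 17 of the 18 that were tested 5 were higher and 3 lower with a median of 0.12. Of all genes tested, 31.6% were higher and 32.9% lower.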

How the data were processed

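Poly(A) RNA of 9 N2a libraries was sequenced. The authors deposited raw read counts per gene and FPKM values, which equal the counts per kilobase of a listed gene length, scaled to the library total. The submitters' notes name mm10, but only 514 of 21795 annotated genes start in the table where they do in GRCm38, so positions came from GENCODE vM21 by gene identifier. The aligner, counter and strand setting are not given in the sources used here.

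Counts were tested in edgeR 4.0.16 (R 4.3.3, limma 3.58.1) with filterByExpr, TMM scaling and robust quasi-likelihood tests, Benjamini-Hochberg adjusted over 12448 genes, at a threshold of 0.05. All Arf1-deficient libraries against shlucif had a fit of 2 groups, and the hairpin comparisons a fit of 3 groups. Overlap between groups was read from TMM-scaled log2 CPM. DESeq2 1.42.0, other scalings and filters, length and GC corrections, a replicate block, leaving out each library and limma on log2(FPKM + 1) or log2(FPKM + 0.1) were alternatives. The fit was also run on simulated counts with the spread of these data. Those held no difference between the hairpins, so the run does not check the pooled fit where hairpins differ. Shared replicate numbers did not pair the libraries.

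Members and gene lists were chosen with earlier results of these data known. Genes were named by rule: Arf1, the Mrps18 paralogues, Mrps36, untested members, the 6 largest rises and falls, the 3 highest and lowest levels, the 3 largest hairpin differences each way, up to 2 rises and 2 falls of each further list, and ribosome subunits with other names. A marker gene that the rule names is not reported here. Depth, at 11182479 to 15594615 counts, limits the members with few counts.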

Additional observations from a re-analysis of the deposited data

Results flagged for a closer look

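Among the genes named here, Mrpl45 and Gabpb1 had a library far from the other Arf1-deficient ones by Dixon's criterion, in both cases shArf1-1 replicate 2, at 11.1 FPKM for Mrpl45 and 6.02 FPKM for Gabpb1. Chance alone marks about 1 gene in 20 in this way.

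Fitted changes from the control differed between the hairpins for members named above, each with less transcript with shArf1-2 than with shArf1-1. The log2 differences were -0.35 for Mrpl20, -0.36 for Mrpl18, -0.44 for Mrpl57, -0.17 for Mrpl12, -0.28 for Mrps35, -0.44 for Mrpl54 and -0.42 for Mrps11. Of these members, only Mrpl20, Mrpl57 and Mrpl54 passed under every alternative. Outside the family the log2 differences were -0.47 for Tfb1m, -0.30 for Gabpb2, -0.67 for Mycn, -0.65 for mt-Nd1 and -0.72 for mt-Cytb. Markers moved with the hairpins too, at -0.78 for Dbh, 0.91 for Pdgfrb and 1.41 for Col1a1, and Arf1 itself was 0.34 higher with shArf1-2. The part of these markers in the differences was not tested.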

How the results depend on the processing

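The counts of members called higher or lower in Arf1-deficient cells, and with each hairpin against shlucif, stayed within 1.5 times of the values given under every alternative. The number higher in Arf1-deficient cells ran from 20 without shlucif replicate 2 to 38 with limma on log2(FPKM + 0.1). In these settings 28% and 36.4% of all genes were higher. The number lower ran from 7 to 11. The comparison of the hairpins moved more. With limma on log2(FPKM + 1) or log2(FPKM + 0.1), 1 member was higher and 5 were lower with shArf1-2. In the same order, 6.57% and 6.7% of all genes were higher and 5.04% and 4.83% lower. With the GC content correction 1 member was higher, where 8.75% of all genes were. With each library left out in turn, 0 to 1 members were higher and 4 to 12 were lower, where 4.59% to 7.84% of all genes were lower. The causes were not tested. The replicate block gave 28 higher and 10 lower in Arf1-deficient cells, where 30.6% and 32.1% of all genes were. It gave 34 and 8 with shArf1-1 (33.2% and 34.5% of all genes) and 25 and 11 with shArf1-2 (31% and 32.8%). Between the hairpins it gave 0 and 11 (7.08% and 7.46% of all genes). Same-numbered libraries did not deviate together (correlations of -0.082 to 0.094), so the block rests on shared numbers only.

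Among the genes named, directions turned only for 4 that were near 0. Mrpl2 was at 0.056 with the GC content correction, 0.015 with the length correction, 0.033 with library totals, 0.035 and 0.034 with limma at the smaller and larger pseudocount, and 0.017 with the block and the length correction together, and ran from -0.089 to 0.024 with a library left out. Mrps18a was at -0.010 with DESeq2, -0.0096 with at least 10 counts in every library and -0.0073 with upper quartile scaling, and ran from -0.098 to 0.086. Chchd1 was at -0.0056, -0.0048 and -0.0037 under the same 3 and -0.0084 with the GC content correction, and ran from -0.044 to 0.079. Mrps11 ran from -0.015 to 0.11. Scaling by library totals moved the median of all genes to 0.07 and that of the family to 0.20. Members with few counts, Mrps18c and Mrpl33, are limited by depth.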

Other observations

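Genes that start opposite a member on the other strand were compared with it in Arf1-deficient against shlucif libraries. Among 30 members with a tested neighbour, both genes changed in the same direction in 5 cases (16.7%) and in opposite directions in 5 (16.7%). Among 1776 tested protein-coding genes with such a neighbour the shares were 24.6% and 13%. Genes that share a start region share no reads by that fact, but overlapping exons can share them.

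The pairs named here were chosen after their values were seen. Mrps12 and Sars2, the mitochondrial seryl-tRNA synthetase, start 172 bases apart and rose together (0.67 and 0.47 on the log2 scale). Mrpl36 and the complex I subunit gene Ndufs6 start 29 bases apart and also rose together (0.45 and 0.29). Mrpl49 rose by 0.71, while Fau, which encodes a cytosolic ribosomal protein and starts 59 bases away, had a log2 fold change of -0.22. Mrps18b was at -0.21 and its neighbour Ppp1r10, which starts 45 bases away, rose by 0.91. Mrps11 and Mrpl46 are members that start 412 bases apart, at 0.05 and 0.19, and neither passed the test. Mrpl55, which lies beside Arf1 on chromosome 11, had a log2 fold change of 0.08 ± 0.08 (adjusted p = 0.364).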
